A study of Rattus norvegicus with 6 samples.

Results

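Sodium, potassium and calcium channel genes were described in regenerated sciatic nerve of male, wild-type Sprague-Dawley rats with a sciatic nerve defect. The members were the genes whose symbols begin as those of voltage-gated sodium channels (Scn), potassium channels of every type (Kcn) or voltage-gated calcium channels (Cacn) and whose summed count over the 6 libraries was at least 30. Of 131 matching symbols 91 met this minimum, out of 23091 genes in the table, and 14 matches had no count at all. The members were 11 sodium, 61 potassium and 19 calcium channel genes. In 3 libraries, called implant 1, implant 2 and implant 3 here, the defect had received an implant named GDNF-Gel/HA-Mg. GDNF is a growth factor for neurons that glia make. The other 3, NC 1, NC 2 and NC 3, came from the group that was left without treatment, with the wound closed directly, so every animal carried the defect. The time after surgery, the age of the rats and whether each library came from its own animal are not stated, so any p-value here weighs a difference only against the scatter of these libraries, part of which may be technical.

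Voltage-gated channels are membrane pores that open when the membrane potential changes. Sodium channels carry the upstroke of the action potential, potassium channels end it and hold the resting potential, and calcium channels couple it to contraction, secretion and gene expression. In a myelinated axon the sodium channels sit at the nodes of Ranvier and shaker-type potassium channels beside them under the myelin, while the cell bodies that make most axonal RNA lie outside the nerve. Schwann cells, blood vessels, leukocytes, fat and muscle each carry channel sets of their own.

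Whole libraries differed in ways that touch these genes. The total count per library ran from 15897850 to 18491379, and haemoglobin took 8.08% to 14.8% of the counts in implant nerves and 1.02% to 25.2% in NC nerves. Summed over 12 of 12 listed genes, markers of myelinating Schwann cells stood at 16427, 1036 and 20102 CPM in implant nerves, against 1089, 39925 and 2739 CPM in NC nerves, libraries being given in the order 1, 2 and 3 of their group here and below. CPM values are edgeR's, from TMM-scaled library sizes. Markers of skeletal muscle, 13 of 14 listed genes being in the table, summed to 91.5, 1716 and 8668 CPM in implant nerves, against 32.1, 417 and 1389 CPM in NC nerves. The 9 adipocyte markers summed to 2473, 4761 and 3151 CPM in implant nerves, against 4704, 1984 and 13812 CPM in NC nerves. The labelled tissue carried its defining Schwann cell markers in every library, among them Sox10 and Pmp22. The 12 markers of neurons summed to 120, 39.9 and 49.9 CPM in implant nerves, against 44.2, 84.6 and 19.7 CPM in NC nerves. Most of that sum was Nefl, Nefm and Uchl1, of which Nefl, a neurofilament subunit, stood at 55.3, 1.03 and 17.2 CPM in implant nerves, against 1.3, 26.8 and 2.02 CPM in NC nerves, while Snap25, a synaptic protein, stood at 0.995, 1.25 and 0 CPM in implant nerves, against 0.779, 0.462 and 1.01 CPM in NC nerves. No marker of these 4 lists was at 0 in all libraries, and in a whole tissue fewer cells of a type and less RNA per cell cannot be told apart.

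No channel gene was called different between the groups by the test over all genes. The low-count filter kept 84 of the 91 members, 11 sodium, 56 potassium and 17 calcium channel genes. Of these, edgeR's quasi-likelihood test with Benjamini-Hochberg adjustment over 13999 genes called 0 higher and 0 lower, where it called 0% of all genes tested. DESeq2 also called 0 members, against 0.0786% of all genes tested, and limma-voom called 0. At an unadjusted p under 0.05 edgeR found 4 members, all with a positive log2 fold change, against 1.72% of all genes tested in either direction and 1.03% in the positive direction. Among them were Kcnj12, Kcnj2 and Kcnk4. The number of members at that p was 4 without implant 1, 1 without implant 2 and 1 without implant 3. There 1.34%, 1.23% and 1.49% of all genes tested passed. It was 3 without NC 1, 9 without NC 2 and 4 without NC 3, where 2%, 4.03% and 3.92% of all genes passed. In 7 of the 84 members (8.33%) the libraries of the groups did not overlap, against 5.69% of all genes tested. The implant nerves were higher in 6 of the 84 members, against 2.81% of all genes tested, and lower in 1 of the 84, against 2.88%. Of the 796 genes without overlap over the whole table, the implant nerves were higher in 393 and lower in 403.

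**Figure D1:**
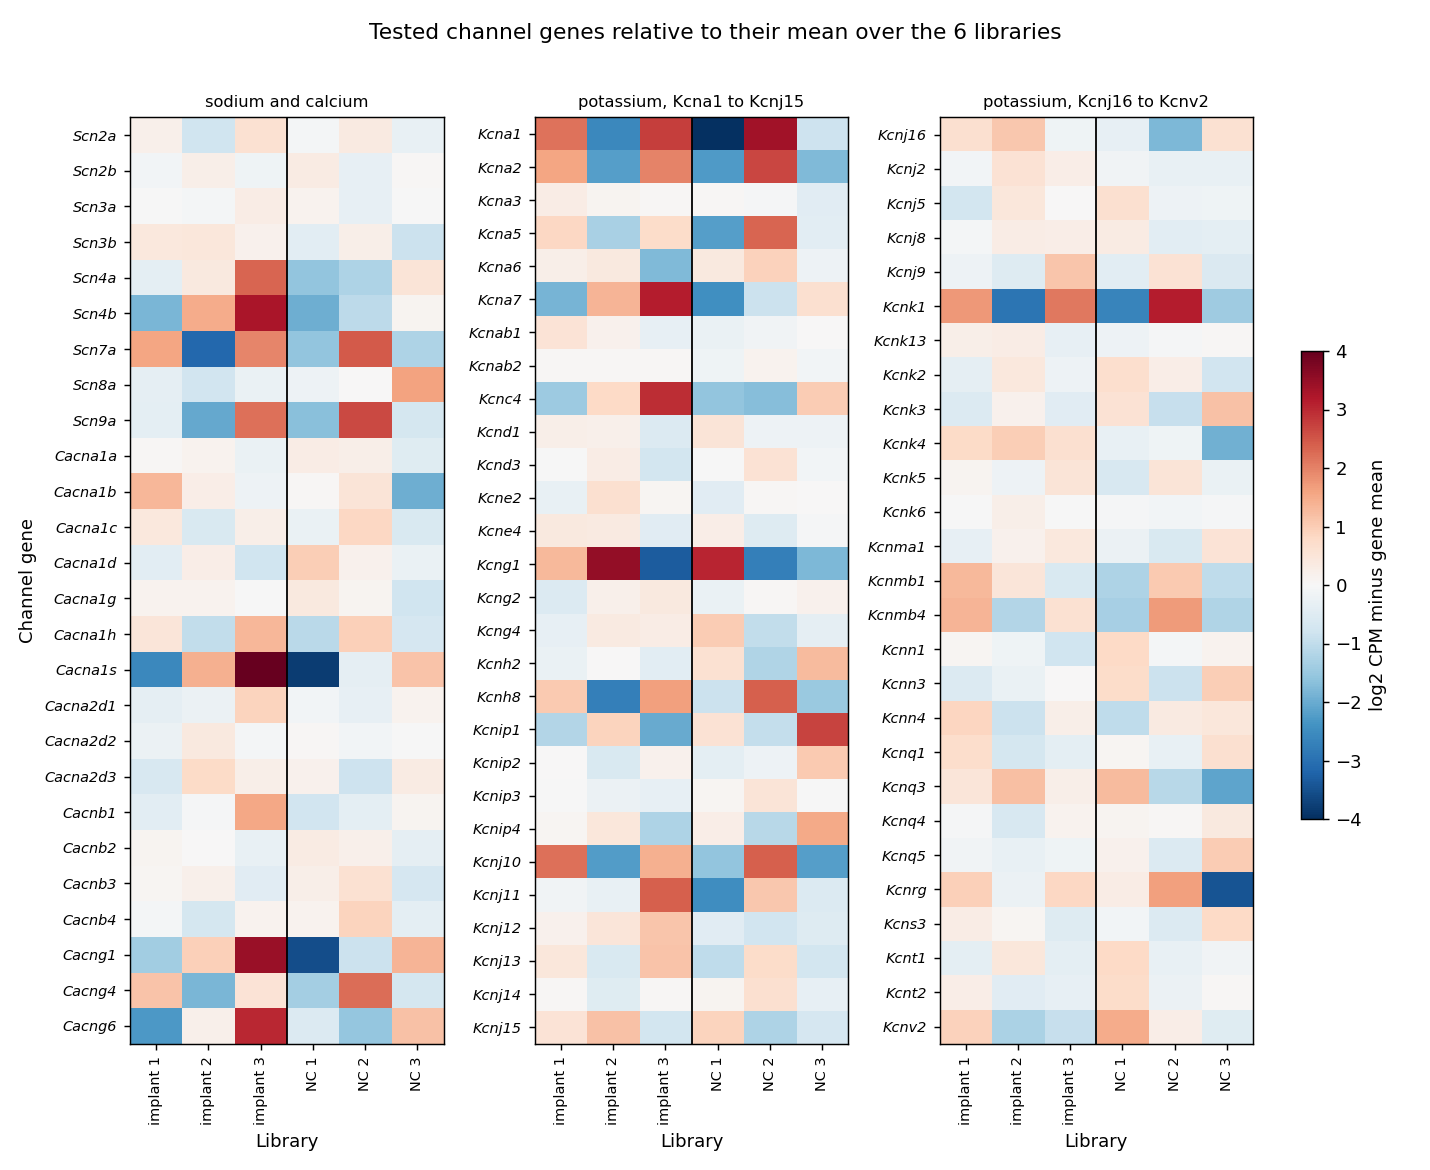
Each row is 1 of 81 tested channel genes and each column a library, implant libraries left of the black line and NC libraries right of it. Colour gives log2 CPM minus the gene's mean over the 6 libraries, with values past 4 in either direction drawn at the end of the scale. The deepest colours lie in a few rows, such as Scn7a, Kcna1 and Kcnk1 with their highest value in NC 2 and Cacna1s, Cacng1 and Scn4b with theirs in implant 3.

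The channel genes varied more from library to library than most genes did. A span of at least 10-fold between the lowest and the highest library, with counts under 3 set to 3, was found in 22 of the 84 members (26.2%), against 5.39% of all genes tested. The median span was 3.63-fold for the members and 1.68-fold for all genes tested. These comparisons were not matched for level. Low counts alone widen a span, and 45 of the 84 members stood under 10 CPM in every library. Of these 22 genes, 10 had their highest library in NC 2 and 8 in implant 3. Over all genes tested, 754 had such a span, with NC 2 on top in 235 of them and implant 3 in 157. As shares of all genes tested these are 1.68% and 1.12%. The remaining 4 were Cacna1b, highest in implant 1 (0.35% of all genes tested), Kcng1 in implant 2 (0.614%), Kcnv2 in NC 1 (0.436%) and Kcnip1 in NC 3 (1.19%). The 10 were Scn7a, Scn9a, Kcna1, Kcna2, Kcna5, Kcnh8, Kcnj10, Kcnk1, Kcnrg and Cacng4. The 8 were Scn4a, Scn4b, Kcna7, Kcnc4, Kcnj11, Cacna1s, Cacng1 and Cacng6. NC 2 was also the library with the most myelin marker RNA, and implant 3 the one with the most skeletal muscle marker RNA. These sets were drawn from their values and carry no test.

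Promoter windows were found for 59 of the 91 members in RefSeq (build GRCr8), and 7 are printed. They are all 5 windows found among the 8 genes with a span of at least 10-fold that were highest in implant 3. The other 2 come from the 6 genes with a window among those highest in NC 2. These 2 were picked with the matches known, so that 1 has and 1 lacks the letters CAGCTG. Each window holds the 250 bases before the annotated start. Capitals mark the hexamer CAGCTG, an E-box that myogenic factors are known to bind and that reads the same on both strands. Scn4a (chr10:91796325-91796574, minus strand), Scn4b (chr8:54343623-54343872, plus strand), Kcnc4 (chr2:197788434-197788683, minus strand), Cacna1s (chr13:50045418-50045667, plus strand) and Cacng6 (chr1:74662754-74663003, minus strand) were highest in implant 3, while Scn7a (chr3:71846285-71846534, minus strand) and Kcna2 (chr2:197393280-197393529, plus strand) were highest in NC 2.
Scn4a: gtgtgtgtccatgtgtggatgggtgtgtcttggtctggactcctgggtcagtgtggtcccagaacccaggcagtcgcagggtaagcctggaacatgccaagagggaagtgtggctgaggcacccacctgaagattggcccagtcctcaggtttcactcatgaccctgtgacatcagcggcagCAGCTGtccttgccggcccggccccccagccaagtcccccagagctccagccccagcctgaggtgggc
Scn4b: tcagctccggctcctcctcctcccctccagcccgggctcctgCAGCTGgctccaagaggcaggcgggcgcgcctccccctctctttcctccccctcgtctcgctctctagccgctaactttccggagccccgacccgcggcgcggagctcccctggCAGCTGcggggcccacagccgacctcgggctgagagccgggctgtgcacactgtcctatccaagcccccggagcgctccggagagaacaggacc
Kcnc4: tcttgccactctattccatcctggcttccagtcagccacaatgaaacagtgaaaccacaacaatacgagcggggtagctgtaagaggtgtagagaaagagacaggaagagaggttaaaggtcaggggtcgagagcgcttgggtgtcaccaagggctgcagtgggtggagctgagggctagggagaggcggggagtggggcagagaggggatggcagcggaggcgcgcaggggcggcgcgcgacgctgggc
Cacna1s: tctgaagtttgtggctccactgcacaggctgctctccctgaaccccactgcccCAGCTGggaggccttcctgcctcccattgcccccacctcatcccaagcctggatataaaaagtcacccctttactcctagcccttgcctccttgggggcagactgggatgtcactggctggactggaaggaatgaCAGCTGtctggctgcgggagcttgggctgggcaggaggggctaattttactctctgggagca
Cacng6: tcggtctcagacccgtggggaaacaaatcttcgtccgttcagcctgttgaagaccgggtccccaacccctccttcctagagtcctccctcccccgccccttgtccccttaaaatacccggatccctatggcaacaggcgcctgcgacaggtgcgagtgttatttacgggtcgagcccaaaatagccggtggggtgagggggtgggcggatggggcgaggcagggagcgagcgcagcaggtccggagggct
Scn7a: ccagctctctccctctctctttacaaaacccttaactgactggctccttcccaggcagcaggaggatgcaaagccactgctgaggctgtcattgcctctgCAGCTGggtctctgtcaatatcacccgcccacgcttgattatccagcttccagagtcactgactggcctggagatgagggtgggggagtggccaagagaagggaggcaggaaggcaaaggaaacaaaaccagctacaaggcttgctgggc
Kcna2: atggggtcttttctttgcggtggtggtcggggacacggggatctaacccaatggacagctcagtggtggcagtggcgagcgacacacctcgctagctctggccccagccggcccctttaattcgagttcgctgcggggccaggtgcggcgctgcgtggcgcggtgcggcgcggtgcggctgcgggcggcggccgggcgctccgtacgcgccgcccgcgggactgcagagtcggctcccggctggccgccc
In Scn4a the hexamer begins 68 bases before the start, in Scn4b 208 and 94 bases, in Cacna1s 197 and 62 bases and in Scn7a 150 bases before it, and the Kcnc4, Cacng6 and Kcna2 windows have none. Over 33469 windows of the same length 12% hold CAGCTG, and 16 of the 59 member genes with a window do. Members are counted as genes with a match in any of their windows, and the background as single windows, so the units differ. Of the 5 genes with a window among the 8 highest in implant 3, 3 hold it. Of the 6 genes with a window among the 10 highest in NC 2, 2 do. Of 3 other motifs searched on both strands, CTANNNNTAG is the outline of a MEF2 site, ACAAAG the core of a SOX site and GGGCGG a GC box. They were in 1, 9 and 34 of the 59 member genes with a window, against 3.41%, 16.3% and 30.5% of all windows, again in unlike units. None of the 4 motifs contains another, although GGGCGG and CAGCTG can share bases at their ends. A match is a string of letters, not a shown binding site.

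Among the pore-forming sodium channels, none was called by the test, and the gene with the widest span was Scn7a. Scn7a (ENSRNOG00000029342) encodes a sodium-sensing relative of the voltage-gated channels that is known from glia. It stood at 707, 26.7 and 922 CPM in implant nerves, against 80.5, 1311 and 101 CPM in NC nerves. In each group 2 libraries lay on one side and 1 far on the other, and the order of the libraries was NC 2, implant 3, implant 1, NC 3, NC 1 and implant 2. Its log2 fold change was 0.15 ± 1.47 (SE), with an approximate 95% interval of -3.43 to 3.73, and without NC 2 it was 2.60. Scn9a, the channel of pain-sensing neurons, stood at 1.29, 0.326 and 8.31 CPM in implant nerves, against 0.467, 11.4 and 1.01 CPM in NC nerves. Its highest libraries were NC 2 and implant 3, as for Scn7a, and the groups overlapped.

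Channels of nodes and of developing or central axons stood at 11.5 CPM or less. Scn8a, the main sodium channel of mature nodes of Ranvier, stood at 1.05, 0.761 and 1.12 CPM in implant nerves, against 1.19, 1.39 and 4.41 CPM in NC nerves. The groups did not overlap, the implant nerves all being lower, although only NC 3 lay far above the rest, with 61 counts. The log2 fold change was -1.24 ± 0.60 (SE; edgeR unadjusted p 0.0857, adjusted p 1.00), and -0.40 without NC 3. Scn3a, which is known from embryonic and injured neurons, stood at 9.37, 8.97 and 11.5 CPM in implant nerves, against 10.3, 7.51 and 9.25 CPM in NC nerves. Scn2a, mainly a channel of central axons, stood at 4.04, 1.96 and 5.42 CPM in implant nerves, against 3.32, 4.57 and 2.82 CPM in NC nerves. Both overlapped between the groups, with log2 fold changes of 0.14 ± 0.20 and 0.09 ± 0.43 (SE). The axonal Scn1a had a summed count of 8.03 and the nociceptor channels Scn11a and Scn10a had 5 and 0, so these 3 stayed under the minimum of 30. Counts of 8 members were not whole in at least 1 library, among them Scn2a, Scn3a, Scn9a and Kcna2. How reads shared between similar genes were divided is not stated, so these values are uncertain to that extent.

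The sodium channel of skeletal muscle differed from library to library. Scn4a, which carries the action potential of skeletal muscle fibres, stood at 1.23, 2.17 and 8.73 CPM in implant nerves, against 0.467, 0.636 and 2.39 CPM in NC nerves. In both groups library 3 was the highest, and NC 3 exceeded implant 1 and implant 2. Its log2 fold change was 1.81 ± 0.97 (SE; edgeR unadjusted p 0.109, adjusted p 1.00), 0.56 without implant 3 and 2.87 without NC 3.

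The beta subunits, which steer the gating and placement of the pores and act as adhesion molecules, were not called by edgeR either. Scn3b stood at 5.44, 5.54 and 4.6 CPM in implant nerves, against 2.96, 4.8 and 2.17 CPM in NC nerves, with a log2 fold change of 0.65 ± 0.34 (SE; edgeR adjusted p 1.00), and NC 2 overlapped the implant nerves. That value was 1.01 without NC 2 and 0.42 without NC 3. Scn2b stood at 13.9, 17.6 and 13.3 CPM in implant nerves, against 18.7, 11.8 and 15.4 CPM in NC nerves and overlapped throughout. Scn4b, which pairs with pores in muscle, heart and some neurons, stood at 0.527, 6.19 and 21.7 CPM in implant nerves, against 0.467, 0.983 and 2.31 CPM in NC nerves. Implant 3 and implant 2 were the highest libraries and implant 1 lay among the NC libraries. Its log2 fold change was 2.93 ± 1.27 (SE; edgeR unadjusted p 0.0597, adjusted p 1.00), and 1.43 without implant 3. Over the class, the log2 fold change was above 0 in 8 of 11 tested sodium channel genes and its median was 0.14, against 47% positive and a median of -0.01 over all genes tested.

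**Figure D2:**
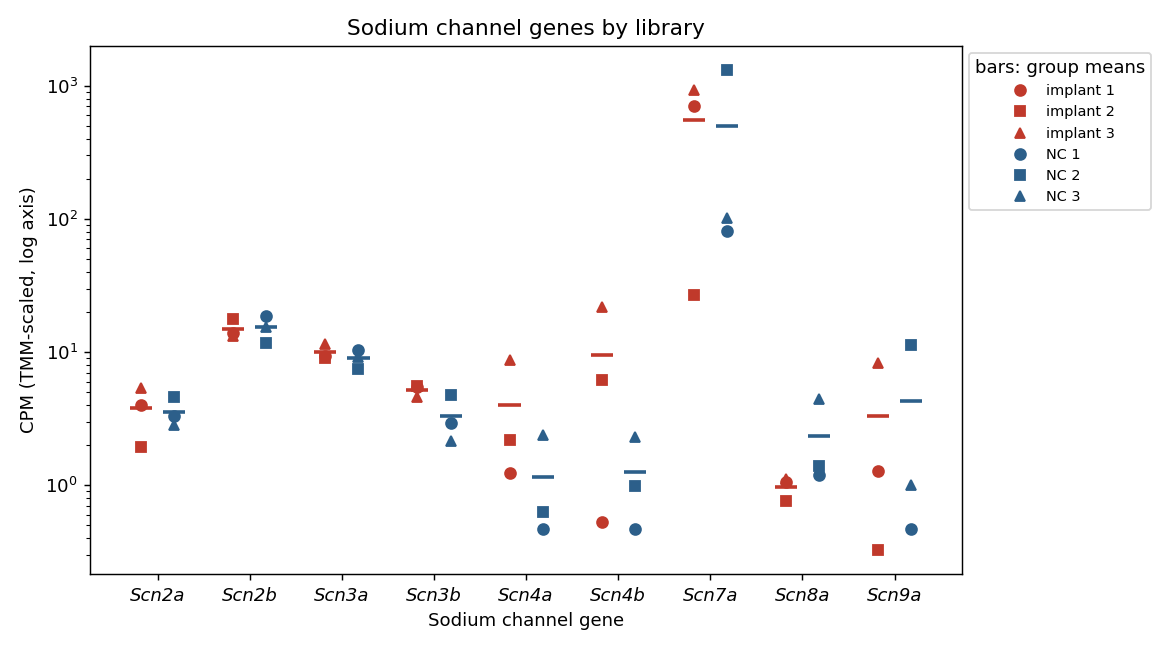
Points give CPM on a log axis for 9 sodium channel genes in each library, implant libraries in red left of NC libraries in blue, and short bars give the group means. The groups overlap in all of them but Scn8a, and Scn7a spans 26.7 to 1311 CPM within the 6 libraries.

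Of the potassium channels, a shaker-type pore of the juxtaparanode had the widest span. Kcna1, a delayed rectifier of myelinated axons, stood at 188, 6.9 and 281 CPM in implant nerves, against 1.3, 424 and 23.1 CPM in NC nerves. NC 2 and NC 1 were the highest and the lowest of all 6 libraries although both belong to the NC group, a span of 327-fold. Its log2 fold change was 0.08 ± 1.89 (SE), with an approximate 95% interval of -4.51 to 4.68, so a difference of several-fold either way was not detectable. Kcna2, its partner in the same channel complexes, stood at 132, 9.51 and 177 CPM in implant nerves, against 9.09, 284 and 12.9 CPM in NC nerves. Again NC 2, implant 3 and implant 1 were high and the other 3 libraries low. Kcna6, a further shaker-type pore, had 14, 17 and 2 counts in implant nerves, against 18, 24 and 8 counts in NC nerves, too few for more than a wide interval of -2.47 to 1.20. Kcna5, a delayed rectifier known from smooth muscle and Schwann cells, stood at 8.37, 1.85 and 7.84 CPM in implant nerves, against 0.935, 24.1 and 3.47 CPM in NC nerves and was likewise highest in NC 2.

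Glial and leak potassium channels shared that order in part. Kcnj10, the inward rectifier by which glia take up potassium, stood at 31.8, 1.36 and 18.2 CPM in implant nerves, against 2.18, 36.1 and 1.37 CPM in NC nerves. Kcnk1, a tandem-pore leak channel, stood at 32.6, 1.2 and 42.9 CPM in implant nerves, against 1.45, 86.9 and 3.54 CPM in NC nerves. Both were high in NC 2, implant 1 and implant 3 and low in the other 3 libraries, with spans of 26.5-fold and 72.7-fold. Their log2 fold changes were 0.37 ± 1.47 and -0.26 ± 1.68 (SE), and without NC 2 they were 3.24 and 3.37. Kcnmb4, a subunit of the large-conductance channel, named after its values were seen, stood at 12.1, 2.01 and 7.13 CPM in implant nerves, against 1.77, 15.5 and 1.95 CPM in NC nerves. Its order had the same 3 libraries on top.

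Set against the myelin markers, some of these genes kept a narrow ratio and others did not. This measure was chosen after the values were seen and is a description. Per 1000 CPM of summed myelinating Schwann markers, Kcna2 stood at 8.02, 9.18 and 8.78 CPM in implant nerves, against 8.34, 7.11 and 4.7 CPM in NC nerves, a 1.95-fold span where its level spanned 31.2-fold. Kcnk1 stood at 1.98, 1.15 and 2.13 CPM in implant nerves, against 1.33, 2.18 and 1.29 CPM in NC nerves per 1000 CPM of the markers, a 1.89-fold span. Scn7a stood at 43, 25.8 and 45.9 CPM in implant nerves, against 73.9, 32.8 and 36.8 CPM in NC nerves per 1000 CPM, a 2.87-fold span. Kcna1 held less closely to the markers, at 11.4, 6.66 and 14 CPM in implant nerves, against 1.19, 10.6 and 8.42 CPM in NC nerves per 1000 CPM, with NC 1 apart from the rest. The span of the ratio was 3.99-fold for Kcnj10, 4.53-fold for Cacng4, 4.57-fold for Kcna5, 5.47-fold for Scn9a and 9.09-fold for Kcnh8, and for Kcnrg the ratio ran from 0 in NC 3 to 1.33 in NC 1. The part of myelinating cells in the levels of these genes was not tested.

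**Figure D3:**
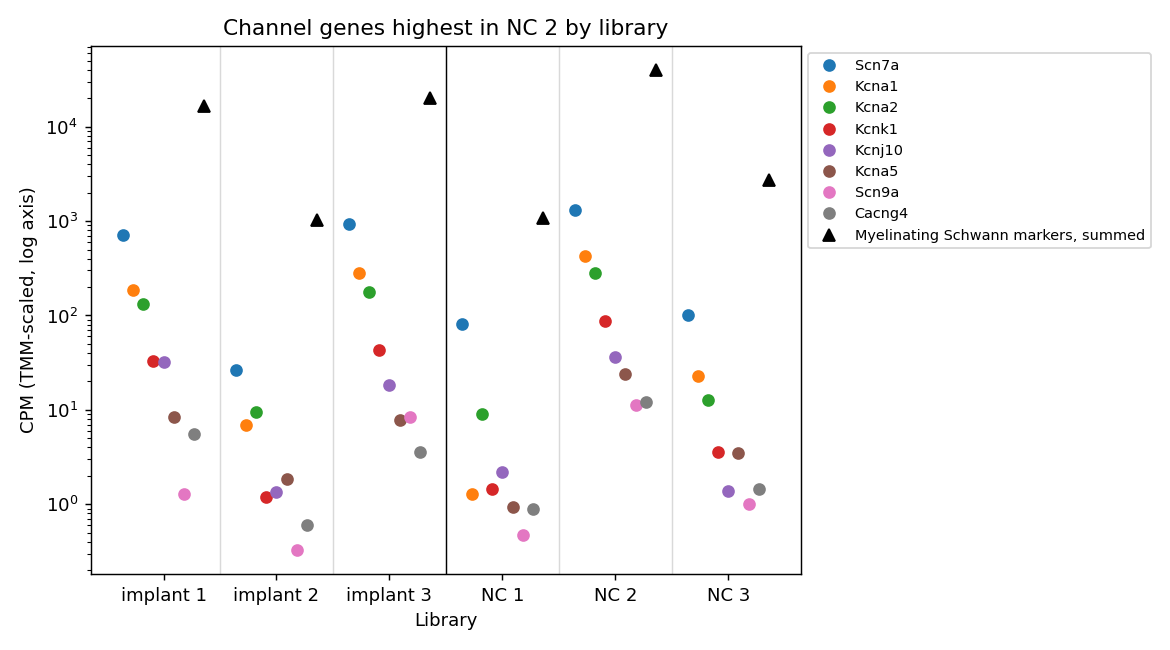
For each library, coloured points give the CPM, on a log axis, of 8 channel genes that were highest in NC 2, and the black triangle gives the summed CPM of 12 myelinating Schwann markers. Implant libraries are left of the black line. Points and triangle are high in implant 1, implant 3 and NC 2 for most of these genes, and low in implant 2 and NC 1.

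The inward rectifiers held the gene with the smallest p of all members. Kcnj12, which sets the resting potential of muscle and other cells, stood at 4.74, 5.92 and 9.2 CPM in implant nerves, against 3.01, 2.43 and 2.89 CPM in NC nerves. Every implant nerve lay above every NC nerve. The means were 6.62 ± 2.31 CPM in implant nerves and 2.78 ± 0.308 CPM in NC nerves (SD, n = 3 each), and the log2 fold change was 1.25 ± 0.31 (SE; approximate 95% interval 0.49 to 2.01; edgeR unadjusted p 0.00691, adjusted p 1.00). DESeq2 gave an adjusted p of 0.460, and leaving out 1 library at a time gave log2 fold changes of 0.94 to 1.45. Kcnj2, its close relative, stood at 14.8, 23.7 and 19.1 CPM in implant nerves, against 14.5, 12.8 and 12.8 CPM in NC nerves, again with no overlap. Implant 1 exceeded NC 1 only narrowly, and the log2 fold change was 0.52 ± 0.20 (SE; edgeR unadjusted p 0.0387, adjusted p 1.00), or 0.35 without implant 2. Skeletal muscle markers were highest in implant 3, as was Kcnj12, while Kcnj2 was highest in implant 2. Of the 11 tested inward rectifiers 9 were above 0 on the log2 scale, and their median was 0.52. None was called.

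Pores of ATP-sensitive potassium channels differed from each other. Kcnj11, the pore in muscle and pancreatic beta cells, stood at 2.05, 1.85 and 12.4 CPM in implant nerves, against 0.312, 4.91 and 1.52 CPM in NC nerves, with implant 3 apart from the rest. Without implant 3 its log2 fold change of 1.27 ± 1.14 (SE) became -0.21. Kcnj8, the pore in vessel walls, stood at 22.9, 29.6 and 29.2 CPM in implant nerves, against 30.6, 18 and 18.4 CPM in NC nerves, and NC 1 was its highest library. Kcnj13, known from epithelia, stood at 10.1, 4.73 and 16.4 CPM in implant nerves, against 3.58, 12.2 and 4.34 CPM in NC nerves and overlapped between the groups.

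Among the tandem-pore channels, Kcnk4 separated the groups at low counts. It encodes a leak channel opened by stretch and heat, known at nodes of Ranvier in rodents, and had 19, 24 and 17 counts in implant nerves, against 9, 9 and 1 counts in NC nerves. The NC nerves were all lower, NC 3 with a single count. Its log2 fold change was 1.64 ± 0.65 (SE; edgeR unadjusted p 0.0444, adjusted p 1.00). Kcnk2, a related stretch-sensitive channel, stood at 4.98, 8.64 and 5.54 CPM in implant nerves, against 10.4, 7.8 and 3.76 CPM in NC nerves and overlapped. Kcnk10, the third of that family, had 25, 10 and 8 counts in implant nerves, against 1, 11 and 1 counts in NC nerves and did not pass the low-count filter. Kcnk3, an acid-sensitive leak channel, stood at 7.61, 12.6 and 8.08 CPM in implant nerves, against 16.9, 5.9 and 25.4 CPM in NC nerves, with a log2 fold change of -0.76 ± 0.53 (SE; edgeR unadjusted p 0.196, adjusted p 1.00). Its 2 highest libraries were NC 3 and NC 1, and the value was -0.28 without NC 3 and -1.16 without NC 2. Kcnk6, named here because its groups did not overlap, stood at 16.7, 20.2 and 16.7 CPM in implant nerves, against 16.3, 15.7 and 16.6 CPM in NC nerves, a difference within 1 SD of the implant nerves.

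Among the potassium channel genes with the smallest p on the lower side were Kcnip3, Kcnip1, Kcnn3 and Kcnk3. Each had an adjusted p of 1.00 by edgeR, to 3 digits. Kcnn3, a small-conductance channel opened by calcium, stood at 2.75, 3.37 and 4.13 CPM in implant nerves, against 6.85, 2.2 and 8.31 CPM in NC nerves. NC 3 and NC 1 were high, and NC 2 was the lowest of the 6 libraries. Kcnip1, a calcium-binding partner of A-type pores, stood at 1.46, 6.52 and 0.767 CPM in implant nerves, against 5.19, 1.73 and 23.4 CPM in NC nerves. NC 3 alone lay far above the rest, and without it the log2 fold change of -1.78 ± 1.16 (SE) became -0.26, while without implant 2 it was -3.17. Kcnip3, of the same family, stood at 3.28, 2.77 and 2.59 CPM in implant nerves, against 3.48, 4.8 and 3.25 CPM in NC nerves and was lowest in implant 3. The adipocyte markers, given above, were highest in NC 3 and next highest in implant 2 and NC 1. Kcnip1 had that order at its top but was lowest in implant 3, not in NC 2. Kcnk3 had the same libraries on top with NC 1 above implant 2. Kcnn3 was lower in implant 2 than in implant 3, and Kcnip3 was highest in NC 2, where the adipocyte markers were lowest. The part of adipocyte RNA in these values was not tested.

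Potassium channels of immune cells did not move together. Kcna3, which sets the potential of T cells and macrophages, stood at 8.6, 7.55 and 7.19 CPM in implant nerves, against 7.11, 6.76 and 4.99 CPM in NC nerves. The groups did not overlap, yet implant 3 exceeded NC 1 by little, and the log2 fold change was 0.31 ± 0.21 (SE; edgeR unadjusted p 0.195, adjusted p 1.00), or 0.16 without NC 3. The 5 T cell markers summed to 21.7, 30.9 and 14 CPM in implant nerves, against 13.9, 10.5 and 24 CPM in NC nerves, without the same order. Kcnn4, an intermediate-conductance channel of leukocytes and red cells, stood at 11.6, 3.42 and 7.43 CPM in implant nerves, against 3.06, 8.15 and 8.75 CPM in NC nerves and overlapped. The immune channel list also held Kcnk6 and Kcnk13, and its 4 log2 fold changes lay between 0.14 and 0.31. Over all genes tested 47% were positive.

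The neuronal potassium channels overlapped between the groups. Kcnq5 and Kcnq3 carry the slow current that restrains repeated firing. Kcnq5 stood at 1.58, 1.41 and 1.53 CPM in implant nerves, against 1.97, 1.16 and 3.69 CPM in NC nerves, and Kcnq3 had 10, 19 and 8 counts in implant nerves, against 21, 2 and 0 counts in NC nerves. Kcnt1, opened by sodium, had 10, 21 and 10 counts in implant nerves, against 29, 11 and 10 counts in NC nerves. Kcnd3, an A-type pore, stood at 7.9, 9.67 and 4.72 CPM in implant nerves, against 7.84, 12 and 7.3 CPM in NC nerves. None of these 4 was called by edgeR. Of the names fixed for description, Kcnc1 with 5 summed counts stayed under the minimum. Just under the minimum stood Kcns1 with 29 and Kcnab3 with 27 summed counts, and just above it Kcna4 with 34 and Kcnk7 and Cacna1i with 39 each. These last 3 members, with Kcnh1, Kcnk10, Kcnv1 and Cacng7, did not pass the low-count filter.

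The beta subunits of shaker-type pores spanned less than the median member, and vessel channels differed among themselves. Kcnab1 and Kcnab2 dock on shaker-type pores. Kcnab1 stood at 11.4, 8.69 and 6.07 CPM in implant nerves, against 6.33, 7.05 and 7.74 CPM in NC nerves. Kcnab2 stood at 4.27, 4.29 and 4.25 CPM in implant nerves, against 3.63, 4.51 and 3.83 CPM in NC nerves, the narrowest span among the members, 1.24-fold. Kcne4, a small inhibitory subunit, stood at 30.2, 29.5 and 16.9 CPM in implant nerves, against 28, 16.2 and 22.4 CPM in NC nerves. Of the large-conductance channel of smooth muscle, the pore Kcnma1 stood at 1.99, 2.83 and 3.42 CPM in implant nerves, against 2.13, 1.62 and 3.69 CPM in NC nerves. Its subunit Kcnmb1 stood at 2.93, 1.63 and 0.708 CPM in implant nerves, against 0.415, 2.49 and 0.506 CPM in NC nerves, with implant 1 and NC 2 highest. Summed over 9 listed genes, smooth muscle and pericyte markers spanned 1.33-fold over the libraries, but some single markers varied more. Myh11, highest in implant 1 and NC 2, stood at 264, 152 and 102 CPM in implant nerves, against 142, 242 and 135 CPM in NC nerves. Des, highest in implant 3, stood at 88.3, 115 and 268 CPM in implant nerves, against 60.1, 91.3 and 126 CPM in NC nerves.

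Kcng1, a silent subunit that modifies other pores, followed an order of its own. It stood at 2.75, 13 and 0 CPM in implant nerves, against 9.4, 0.0578 and 0.217 CPM in NC nerves. Implant 2 and NC 1, the libraries with the least myelin marker RNA, held nearly all of its reads apart from implant 1, and implant 3 had none. The log2 fold change of 0.69 ± 1.97 (SE) became -1.25 without implant 2 and 5.26 without NC 1. Kcnj15, an inward rectifier named after its values were seen, also had its highest libraries in implant 2 and NC 1, at 37.3, 56.9 and 15.2 CPM in implant nerves, against 47.3, 10.8 and 15.8 CPM in NC nerves.

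Over the class, edgeR called 0 of 56 potassium channel genes in either direction. Positive log2 fold changes were found in 31 and negative ones in 25, with a median of 0.07. The median was -0.07 without implant 1 and -0.04 without implant 3, and it was 0.15 without NC 2. By role, 9 of 21 voltage-gated pores, 7 of 11 auxiliary subunits, 9 of 11 inward rectifiers, 4 of 7 tandem-pore channels and 2 of 6 channels opened by calcium or sodium were positive. The 21 tested potassium channel genes not described singly, from Kcnd1 to Kcnv2, all overlapped between the groups. Their log2 fold changes ran from -0.86 for Kcnv2 to 0.99 for Kcnj16, and their smallest unadjusted p by edgeR was 0.203, for Kcnn1 (adjusted p 1.00). The medians of the roles ran from -0.36 for the channels opened by calcium or sodium to 0.52 for the inward rectifiers.

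**Figure D4:**
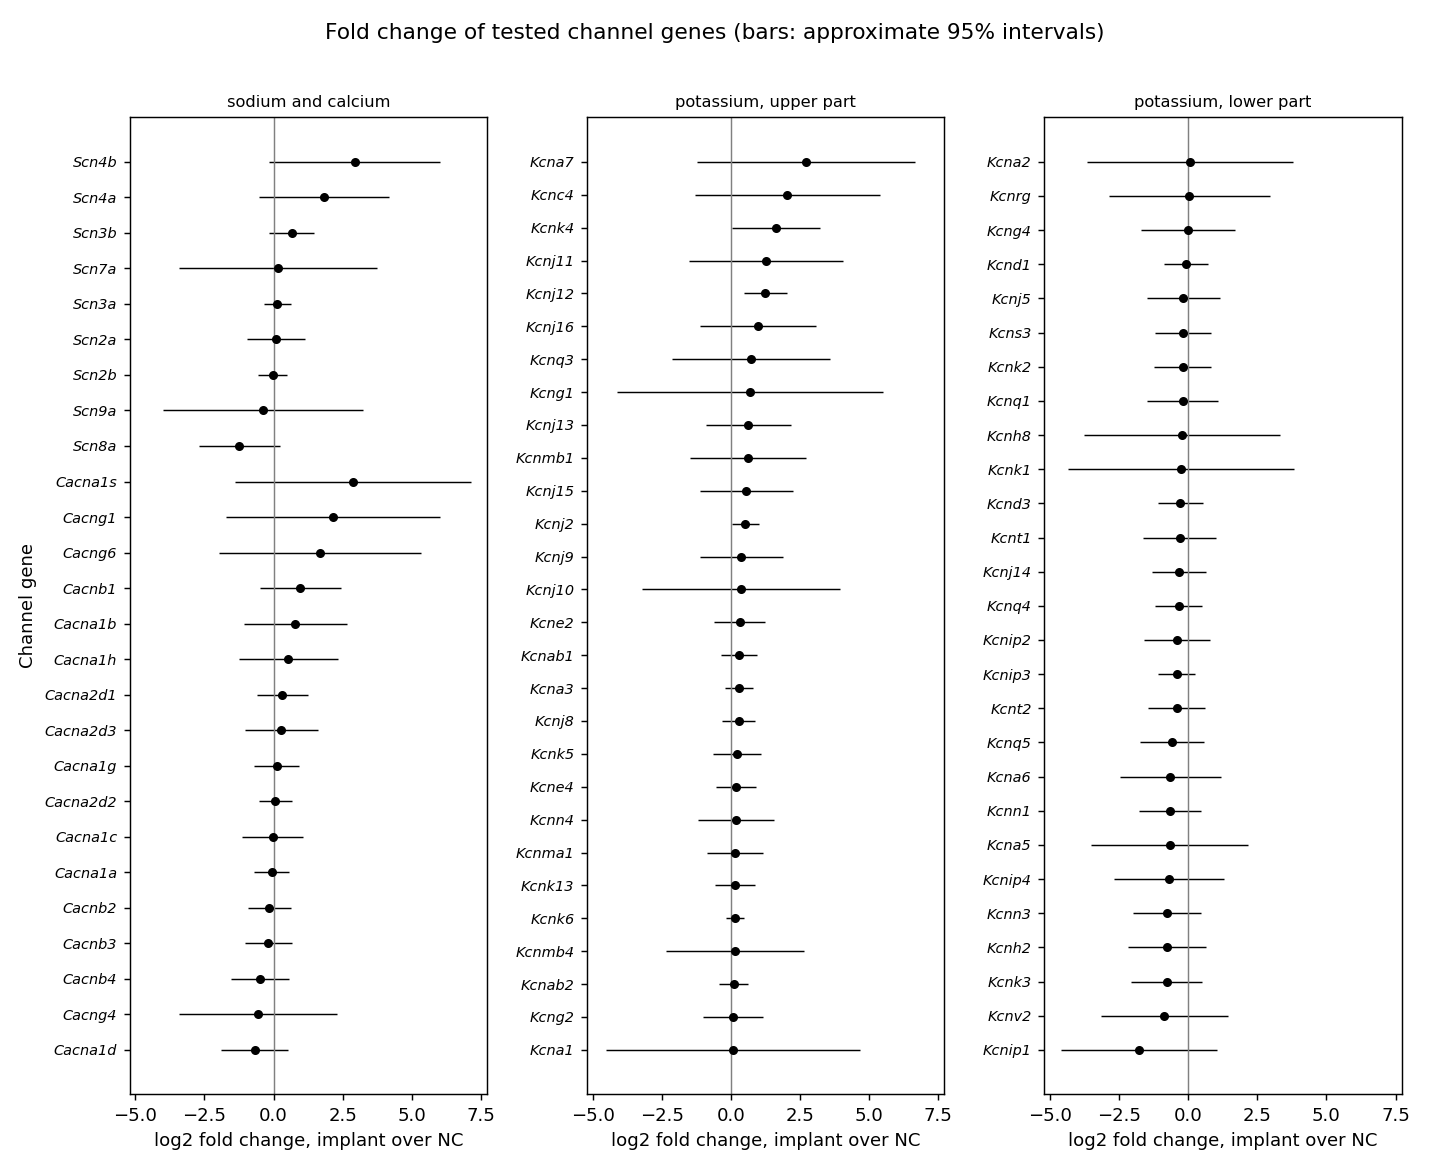
Points give the log2 fold change, implant over NC, of 81 tested channel genes, and bars the approximate 95% interval from edgeR. Genes are ordered by fold change within sodium, calcium and potassium channels. The intervals of Kcnj12, Kcnj2 and Kcnk4 lie above 0 before adjustment, and the widest belong to genes such as Kcna1 and Kcng1 that differ most within a group.

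Of the calcium channels, the skeletal muscle complex had the widest span of all members. Cacna1s, the voltage sensor that triggers contraction, stood at 0.527, 10.1 and 70.4 CPM in implant nerves, against 0.156, 2.83 and 8.24 CPM in NC nerves, and its NC 1 value rests on 3 counts. Implant 3 was far above every other library, and NC 3 lay between implant 1 and implant 2. Cacng1, a gamma subunit of the same complex, stood at 0.644, 3.69 and 21.8 CPM in implant nerves, against 0.0519, 0.983 and 4.99 CPM in NC nerves. Cacng6, a further gamma subunit of muscle, had 1, 16 and 115 counts in implant nerves, against 9, 3 and 25 counts in NC nerves. Cacnb1, the beta subunit of the muscle channel, stood at 2.4, 3.21 and 9.73 CPM in implant nerves, against 1.87, 2.49 and 3.54 CPM in NC nerves. All 4 were highest in implant 3, and in NC nerves all 4 were highest in NC 3. Their log2 fold changes were 2.87 ± 1.75, 2.14 ± 1.59, 1.67 ± 1.50 and 0.96 ± 0.60 (SE; edgeR adjusted p 1.00 each). Without implant 3 they were 0.51, 0.13, -0.77 and 0.09, and without NC 3 they were 4.20, 4.09, 2.96 and 1.23. Cacna2d1, the alpha2delta subunit that gabapentin binds and that is known to increase in rat sensory neurons after nerve injury, stood at 8.72, 9.45 and 20.9 CPM in implant nerves, against 10.3, 8.79 and 12.3 CPM in NC nerves. It was also highest in implant 3, and its log2 fold change was 0.32 ± 0.38 (SE).

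The list of 11 skeletal muscle channels brought together members of all 3 classes. It included Scn4a, Cacna1s, Cacng1, Cacng6, Cacnb1, Cacna2d1, Kcna7, Kcnj2, Kcnj11 and Kcnc4. All 11 lay above 0, their median log2 fold change being 1.67, with none called by edgeR, where 47% of all genes tested were positive. With RLE scaling or DESeq2 10 were positive. Without implant 3 the median was 0.30 and 8 were positive. Implant 3 was the highest library for 9 of the 11, against 11.8% of all genes tested, and implant 2 for 1, against 15.1%. Among NC libraries NC 3 was the highest for 9 of the 11. Kcna7, a shaker-type pore of muscle, had 1, 28 and 93 counts in implant nerves, against 0, 4 and 12 counts in NC nerves. Kcnc4, a fast shaw-type pore, stood at 0.293, 1.85 and 8.61 CPM in implant nerves, against 0.26, 0.231 and 2.17 CPM in NC nerves, with a log2 fold change of 2.04 ± 1.38 (SE; edgeR unadjusted p 0.187, adjusted p 1.00) that was 0.30 without implant 3 and 3.83 without NC 3. The 12 tested skeletal muscle markers were likewise all positive, and none was called.

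Per 1000 CPM of summed skeletal muscle markers, a measure chosen after the values were seen, Cacna1s stood at 5.76, 5.86 and 8.12 CPM in implant nerves, against 4.85, 6.79 and 5.93 CPM in NC nerves. That is a 1.68-fold span in a gene whose level ran from 0.156 to 70.4 CPM. The NC 1 value of 4.85 has an exact 95% Poisson interval of 0.999 to 14.2, which covers counting error only. Cacng1 stood at 7.04, 2.15 and 2.51 CPM in implant nerves, against 1.62, 2.35 and 3.59 CPM in NC nerves per 1000 CPM of the markers, NC 1 resting on 1 count. Scn4a did not keep one ratio, at 13.4, 1.27 and 1.01 CPM in implant nerves, against 14.5, 1.52 and 1.72 CPM in NC nerves per 1000 CPM, with implant 1 and NC 1 far above the other 4 libraries. The span of the ratio was 4.36-fold for Cacng1, 8.73-fold for Scn4b, 14.4-fold for Scn4a, 14.6-fold for Kcnc4 and 20.8-fold for Kcnj11. It was 35.0-fold for Cacng6 and 51.8-fold for Cacnb1, whose level spanned 5.21-fold. Kcnj2 and Cacna2d1 were further from proportion still, with ratio spans of 205-fold and 133-fold. For Kcna7 the ratio was 0 in NC 1. The part of muscle RNA in the levels of these genes was not tested.

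**Figure D5:**
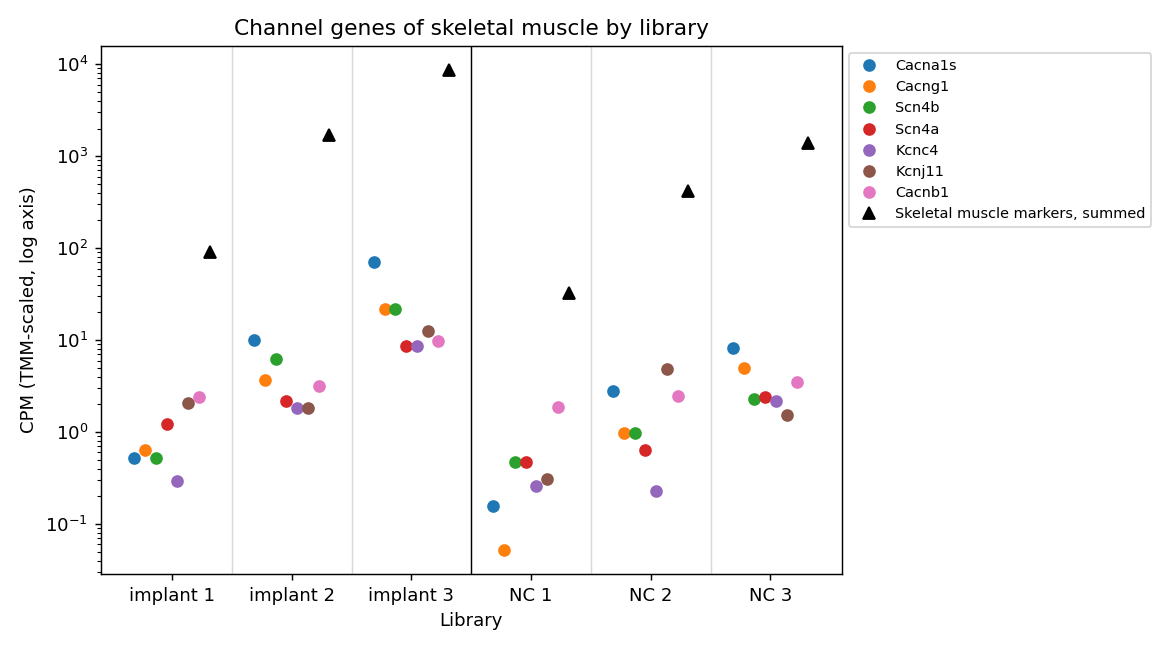
For each library, coloured points give the CPM, on a log axis, of 7 channel genes of skeletal muscle, and the black triangle gives the summed CPM of 13 skeletal muscle markers. Implant libraries are left of the black line. Implant 3 holds the highest point of each gene drawn and the highest triangle, and NC 3 holds the highest triangle of the NC group. The 7 are a selection that includes Scn4b, which is not among the 11 listed skeletal muscle channels. Of those 11, implant 3 was the highest library for 9, and Kcnj2, not drawn, was highest in implant 2.

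The calcium channel pores of nerve and vessel spanned 13.2-fold or less. Cacna1c, the L-type pore of heart and vessel, stood at 25.5, 12.2 and 22.3 CPM in implant nerves, against 15.6, 33.7 and 12.2 CPM in NC nerves. Cacna1h, a low-voltage (T-type) pore, stood at 21.6, 7.72 and 38.8 CPM in implant nerves, against 7.32, 29.8 and 9.76 CPM in NC nerves. Both were high in implant 1, implant 3 and NC 2. Cacna1a, the P/Q-type pore of nerve terminals, stood at 10.1, 10.6 and 8.08 CPM in implant nerves, against 11.8, 11.4 and 6.87 CPM in NC nerves. Cacna1b, the N-type pore, stood at 3.8, 1.79 and 1.24 CPM in implant nerves, against 1.51, 2.14 and 0.289 CPM in NC nerves. Cacna1g, another T-type pore, stood at 5.62, 5.65 and 5.07 CPM in implant nerves, against 6.65, 5.49 and 2.89 CPM in NC nerves. In these 5 genes the groups overlapped, and in Cacna1b NC 3 was lowest, with 4 counts. Cacna1d, an L-type pore of neurons and endocrine cells, stood at 1.4, 2.34 and 1.06 CPM in implant nerves, against 3.95, 2.2 and 1.59 CPM in NC nerves, with a log2 fold change of -0.69 ± 0.49 (SE; edgeR unadjusted p 0.21, adjusted p 1.00). NC 1 was its highest library, and without it the value was -0.22, while without implant 2 it was -1.06.

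Auxiliary calcium channel subunits outside muscle did not separate the groups either. Cacnb3 stood at 17.9, 19.2 and 12.3 CPM in implant nerves, against 19.8, 25.7 and 10.6 CPM in NC nerves. Cacnb4 stood at 2.81, 1.79 and 3.3 CPM in implant nerves, against 3.27, 5.61 and 2.24 CPM in NC nerves. Cacnb2 stood at 2.52, 2.34 and 1.89 CPM in implant nerves, against 2.96, 2.72 and 1.81 CPM in NC nerves. These beta subunits bring the pore to the membrane, and all 3 had a negative log2 fold change, of -0.19 ± 0.35, -0.49 ± 0.43 and -0.15 ± 0.32 (SE), which without NC 2 was 0.11 for Cacnb3 and -0.07 for Cacnb4. The alpha2delta subunits of neurons overlapped too. Cacna2d2 stood at 4.27, 6.63 and 4.78 CPM in implant nerves, against 5.24, 4.68 and 5.06 CPM in NC nerves. Cacna2d3 stood at 0.937, 2.72 and 1.83 CPM in implant nerves, against 1.77, 0.809 and 1.95 CPM in NC nerves. Cacng4, a subunit of AMPA receptors as well as of calcium channels, stood at 5.5, 0.598 and 3.6 CPM in implant nerves, against 0.883, 12 and 1.45 CPM in NC nerves and was highest in NC 2. Its relative Cacng7 had 16, 5 and 9 counts in implant nerves, against 8, 3 and 4 counts in NC nerves and did not pass the low-count filter, and Cacng5 had 0 counts. Over the class, 10 of 17 tested calcium channel genes were positive, with a median of 0.12 and 0 called by edgeR, and the median was -0.02 without implant 3.

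Channel genes of axons and nociceptors, 9 of 13 listed genes being tested, had a median log2 fold change of 0.08, and 7 were positive. Those of smooth muscle and pericytes had a median of 0.28, with 5 of 7 positive. Without implant 3 these medians were -0.20 and -0.04, and no member of either list was called by edgeR. Cacna2d1, itself at -0.20 without implant 3, counts in the axon list and in that of skeletal muscle channels.

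Genes that place channels or share their current were set beside the members. They include anchors, node and juxtaparanode adhesion molecules, pumps, other cation and chloride channels and genes of muscle calcium release such as Trdn and Jsrp1. Of these genes 67 were listed and 62 tested. edgeR called 0 higher and 0 lower, and DESeq2 called 0. At an unadjusted p under 0.05 edgeR found 1 of 62, against 1.72% of all genes tested, a share near the background. Above 0 lay 38 of 62, against 47% of all genes tested, the median being 0.08 on the log2 scale. That gene was Cntnap1, the axonal partner of the paranodal junction, at 12.4, 8.69 and 11.3 CPM in implant nerves, against 5.56, 6.99 and 8.17 CPM in NC nerves, with no overlap between the groups. Its log2 fold change was 0.65 ± 0.23 (SE; edgeR unadjusted p 0.0288, adjusted p 1.00). The groups did not overlap in 3 of the 62 (4.84%), against 5.69% of all genes tested. A span of at least 10-fold was found in 14 of the 62 (22.6%), against 5.39% of all genes tested, again not matched for level. Nfasc, the adhesion molecule of nodes and paranodes, stood at 92, 6.74 and 119 CPM in implant nerves, against 6.44, 218 and 16.3 CPM in NC nerves. Gldn, by which Schwann cells gather sodium channels at nodes, stood at 124, 2.72 and 135 CPM in implant nerves, against 4.88, 252 and 12.2 CPM in NC nerves. The order of the libraries was that of Scn7a at its top, NC 2, implant 3 and implant 1. Ank3, the node anchor of sodium channels, stood at 183, 160 and 129 CPM in implant nerves, against 198, 210 and 35.9 CPM in NC nerves, with NC 3 alone low. Ryr1, the calcium release channel that Cacna1s opens in muscle, stood at 5.44, 25.2 and 196 CPM in implant nerves, against 4.98, 9.02 and 27.5 CPM in NC nerves. Its highest library was implant 3, as for Cacna1s. Clcn1, Stac3, Jsrp1, Jph1, Trdn and Jph2 were also highest in implant 3. Their log2 fold changes, 1.03 to 3.15, count among the 38 above 0, while Jph3, highest in NC 2, had -0.36.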

How the data were processed

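Messenger RNA was enriched on oligo(dT) beads and made into libraries with a NEBNext Ultra kit, per the labels' protocols, with no strand-marking step named, so overlapping or antisense genes may share reads. Tools listed in the submitters' processing notes, with no role, are HISAT2, StringTie 1.3.1, Bowtie2 2.2.8 and DESeq2. Which counter, build and annotation made the table is not given in the sources used here. In that table the authors deposited expected counts (estimated counts, not normalized) for 23091 genes, 1898 to 2085 per library not whole, which were rounded. Columns were matched to titles by name, and the columns named Gel_HA-Mg were taken as the GDNF-Gel/HA-Mg group.

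Genes kept by filterByExpr (13999) were scaled by TMM and compared with edgeR 4.0.16 (quasi-likelihood, group as the only term, R 4.3.3), with 0.05 as the limit on the Benjamini-Hochberg adjusted p. The SE is the log2 fold change over the root of F, and the approximate intervals use the t quantile of the fit's degrees of freedom. Alternatives were RLE and upper quartile scaling, DESeq2 1.42.0, limma-voom (limma 3.58.1), other filters, a block for the replicate number, and fits that leave out 1 library. The procedure was tested on simulated data, where it recovered 6 of 50 genes changed 2-fold and 42 of 49 changed 4-fold. Of its 151 calls there, 6 were false. These shares hold for the scatter simulated there. No library pair agreed within sampling noise (chi-square per degree of freedom at least 86.5). Levels were not compared between genes, for want of transcript lengths.

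Members and lists were chosen with earlier results of these data known. The naming rule took the sodium channel genes, the 5 per direction with the smallest unadjusted p and the 5 with the widest span in each class, and a fixed set by role. Of the named genes Kcnc4, Kcng1, Kcnip1, Kcnk3 and Kcnn3 entered by p or span alone. A few genes that the counts include are not reported here by name or in the figures. Figures were drawn with matplotlib 3.10.9.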

Additional observations from a re-analysis of the deposited data

How the results depend on the processing

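No channel gene was called under any setting tried. edgeR called 0 genes of the whole table with each scaling, filter, block and left-out library, limma-voom called 0, and DESeq2 called 11, 0 of them members. The median log2 fold change of the potassium channel genes was 0.19 by limma-voom. With the replicate number as a replicate block it was 0.45 for sodium and 0.19 for potassium channel genes. In that fit the smallest unadjusted p of a member by edgeR was 0.00286, for Cacna1s. Whether the numbers pair the samples is not stated. Deviations of same-numbered libraries correlated at 0.10, -0.72 and 0.06, and no implant library correlated best with the NC library of its own number. These few correlations cannot exclude a pairing, and skeletal muscle markers rose in the order of the numbers in both groups. Leaving out 1 library at a time moved the medians between 0.041 and 0.36 for sodium, between -0.070 and 0.15 for potassium and between -0.015 and 0.22 for calcium channel genes. Without implant 1 the groups did not overlap in 20.2% of tested members, against 10.9% of all genes tested. The shares were 12.6% against 12% without implant 2, 16.1% against 12.8% without implant 3 and 11.4% against 13.8% without NC 1. They were 23.3% against 17.1% without NC 2 and 18.2% against 17.4% without NC 3. Smaller groups overlap less by construction. Some log2 fold changes, none of them called, changed sign, and the cause was not tested. By limma-voom the value was -0.034 for Scn2a, 0.23 for Kcna5, 0.58 for Kcnk1 and 0.00903 for Cacna1c. With the replicate block the value was 0.45 for Scn9a, 0.51 for Kcna5, 2.26 for Kcnk1, 0.0668 for Cacna1c and 0.35 for Cacng4. With 1 library left out, the lowest and highest values were -0.25 and 0.41 for Scn2a, -0.20 and 0.15 for Scn2b, -0.44 and 2.60 for Scn7a, -2.41 and 2.17 for Scn9a, -0.62 and 3.72 for Kcna1, -0.53 and 3.27 for Kcna2, -1.18 and 1.46 for Kcna5, -1.25 and 5.26 for Kcng1, -0.41 and 3.24 for Kcnj10, -0.21 and 2.60 for Kcnj11, -0.86 and 3.37 for Kcnk1, -0.51 and 0.16 for Kcnk2, -0.0766 and 0.55 for Kcnma1, -0.28 and 0.53 for Kcnn4, -0.70 and 0.20 for Kcnt1, -0.28 and 0.0817 for Cacna1a, -0.30 and 0.52 for Cacna1c, -0.16 and 0.39 for Cacna1g, -0.0957 and 1.41 for Cacna1h, -0.20 and 0.55 for Cacna2d1, -0.14 and 0.20 for Cacna2d2, -0.12 and 0.60 for Cacna2d3, -0.34 and 0.00469 for Cacnb2, -0.47 and 0.11 for Cacnb3, -1.17 and 1.47 for Cacng4 and -0.77 and 2.96 for Cacng6. Depth limits genes with few counts in a library, such as Cacna1s, Cacng1 and Kcng1, whose lowest libraries held 3, 1 and 0 counts.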
